A study of Brassica juncea with 2 samples.

Results

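The unigenes described here are the phosphate uptake and phosphate starvation response unigenes of CS52, a variety of Indian mustard (B. juncea) that tolerates salt. They were taken by words in the annotation column of the deposited table (phosphate transporter, SPX, purple acid phosphatase, phosphate starvation, PHO1 and EXS (ERD1), which gave 89 of 47513 unigenes. A unigene is an assembled transcript, so a gene can be split over several, and reads of near-identical copies may be shared between them. Both libraries came from wild type CS52 seedlings aged 2 weeks, grown hydroponically, with tissue of about 10 seedlings pooled in each. The SS seedlings spent 24 h in 200 mM salt, whereas the CTRL seedlings stayed in water and were collected at the same time. There was 1 library per condition, so no difference between them has a replicate check, none was tested, and all intervals below are 95% intervals that cover counting error only.

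Plants take up inorganic phosphate from soil through PHT1 proteins, proton-coupled carriers of the plasma membrane, and move it inside the cell with the plastid PHT2, mitochondrial PHT3 and mostly plastid PHT4 carriers. In Arabidopsis, PHO1, whose family carries an EXS domain, loads phosphate into the xylem, and MFS proteins with an SPX domain store it in the vacuole. SPX proteins sense phosphate status through inositol pyrophosphates and hold back PHR1, the MYB-type transcription factor that switches on starvation genes. Purple acid phosphatases (PAPs) release phosphate from organic compounds inside and outside the cell.

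The words matched unevenly. Of the 89 unigenes, 20 carried the words phosphate transporter, 33 purple acid phosphatase, 15 EXS (ERD1, 12 phosphate starvation and 9 SPX, and 0 carried PHO1 as a name. All 89 belonged to the rapa series of identifiers, which the study set apart by sequence likeness to B. rapa and which held 93.0% of the annotated unigenes, and they had 55 different B. rapa gene matches. Their lengths ran from 303 to 2758 bp with a median of 981 bp, against 744 bp over all unigenes. Reads per unigene ran from 11 to 8580.

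Levels are given as RPKM (reads on a unigene, scaled to its length and to the high-quality reads of the library), with the length of the unigene itself used for CTRL and SS alike. The deposited SS values carried no length correction and were converted from whole reads. In CTRL, the 89 unigenes ranged from 0.680 to 56.4 RPKM with a median of 3.14 RPKM, and in SS from 0.252 to 54.9 RPKM with a median of 2.90 RPKM. The medians over all unigenes were 3.04 RPKM (CTRL) and 2.84 RPKM (SS). A CTRL level of 10 RPKM or more was found for 17 of the 89 unigenes (19.1%), against 18.4% of all unigenes, close to each other.

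The change between the libraries is the log2 ratio of SS to CTRL after adding 0.1 RPKM to each level, which understates the change of low unigenes. It was taken over unigenes that reached 1 RPKM in CTRL or SS, which held for 85 of the 89. The unigenes under this minimum were PHT3;3 (Bju_CS52_R_1587), a PAP10 (Bju_CS52_R_692), a PAP13 (Bju_CS52_R_14001) and a PAP15 (Bju_CS52_R_12058). Of the 85, 1 was higher in SS by 2-fold or more and 4 were lower by 2-fold or more. Among all 43250 unigenes above the minimum, the shares past 2-fold were 1.91% higher and 4.21% lower, and in the rapa series alone 1.12% and 4.13%, so the members' counts are close to the background. By 1.5-fold or more, 5 members were higher (5.61% of all unigenes) and 7 lower (12.3%), and 73 stayed within 1.5-fold (82.1%). The log2 ratio was above 0 for 42 members and below 0 for 43, with a median of -0.0018, against -0.06 over all unigenes and -0.10 over the rapa series. The sum of reads over all 89 was 85868 in CTRL and 82965 in SS, with a ratio of 1.02 (1.01 to 1.03) after scaling to library size. Summed over the group, the libraries thus differed little, and the larger differences lay between roles and single unigenes.

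**Figure D1:**
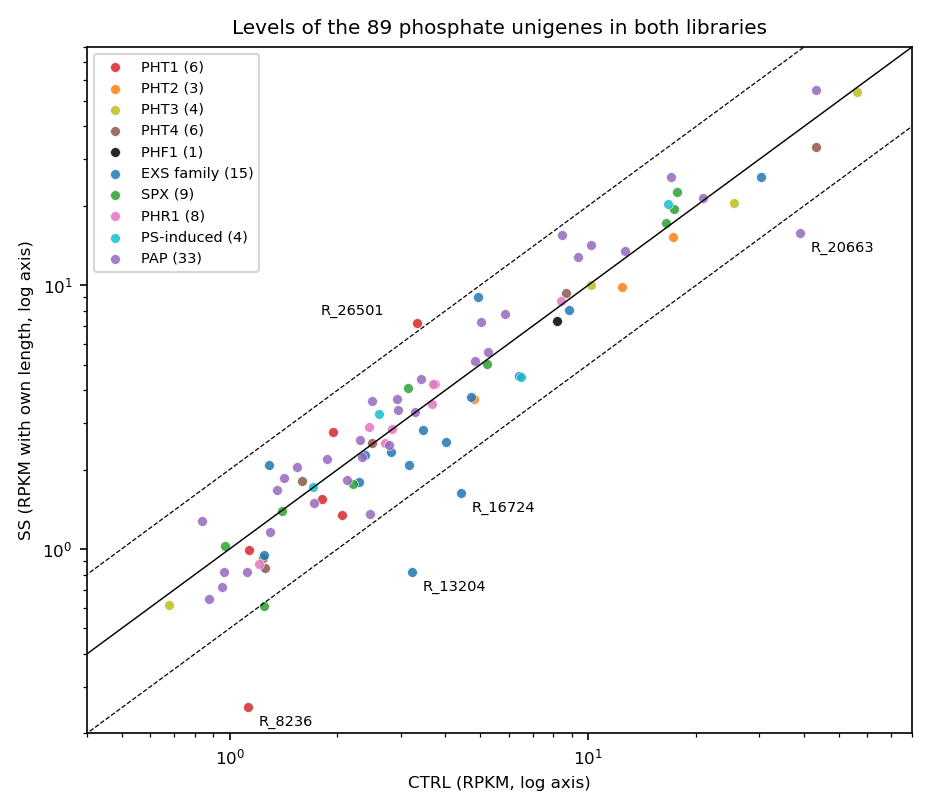
Levels of the 89 unigenes in CTRL (x axis) and SS (y axis), in RPKM on log axes. Each point is 1 unigene coloured by role, the solid line marks equal levels and the dashed lines 2-fold. Labelled are the 5 unigenes past 2-fold with a pseudocount of 0.1 RPKM, with R_26501 above the band and R_13204, R_16724, R_8236 and R_20663 below it. R_6688, unlabelled, also lies just below the lower line, since the plotted levels carry no pseudocount.

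**Figure D2:**
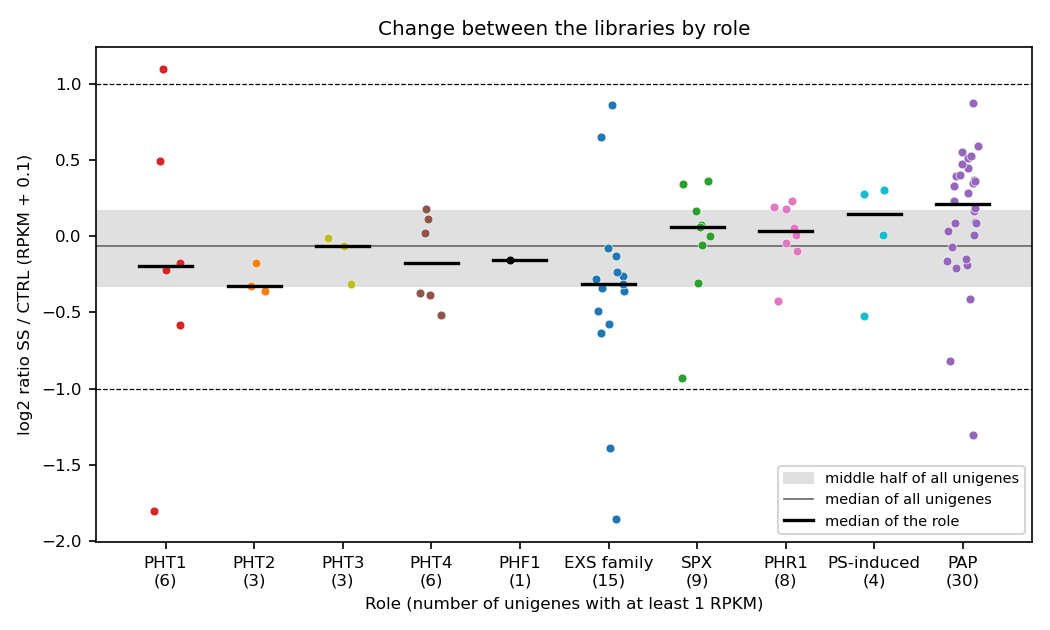
Log2 ratio of SS to CTRL (RPKM + 0.1) for the 85 unigenes that reached 1 RPKM in CTRL or SS, by role. Points are unigenes, thick bars the median of a role, the grey band the range from the lower to the upper quartile of all unigenes, the thin line their median of -0.06, and dashed lines 2-fold. The median of the purple acid phosphatases (0.21) lies above the grey band, and that of the EXS family (-0.31) near its lower edge.

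Uptake carriers of the PHT1 type were represented by 6 unigenes, all under 10 RPKM in both libraries. In CTRL they ranged from 1.13 to 3.33 RPKM, and in SS from 0.252 to 7.20 RPKM. They included the highest log2 ratio of all 89 unigenes and also a ratio near the low end. In Arabidopsis, PHT1;9 takes part in phosphate acquisition by roots. The PHT1;9 unigene Bju_CS52_R_26501, of 1830 bp, had 577 reads in CTRL against 1183 in SS, or 3.33 and 7.20 RPKM. It was the only member at least 2-fold higher in SS, with a ratio of 2.17 (1.96 to 2.40) and a log2 ratio of 1.09. The lower end of its counting interval lies just under 2-fold, and with a pseudocount of 1 RPKM its log2 ratio was 0.92.

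The other PHT1;9 unigene, Bju_CS52_R_8236, went the opposite way. It had 52 reads in CTRL against 11 in SS on 486 bp, or 1.13 and 0.252 RPKM. The CTRL level was 4.48-fold the SS level (2.31 to 9.51), a log2 ratio of -1.80 that became -0.77 with a pseudocount of 1 RPKM. The pair matched different B. rapa genes, Bra008260 and Bra003719. Summed, they had 629 reads in CTRL against 1194 in SS, with a ratio of 2.01 (1.82 to 2.21), and 1183 of the 1194 SS reads came from the longer unigene.

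PHT1;4, a main root uptake carrier in Arabidopsis, also split. The shorter unigene, Bju_CS52_R_7275 (457 bp), had 89 reads in CTRL against 55 in SS, with a ratio of 0.653 (0.458 to 0.924). Its longer counterpart, Bju_CS52_R_17465 (947 bp), had 174 reads in CTRL against 235 in SS, with a ratio of 1.43 (1.17 to 1.75). Both matched Bra000107, and their intervals do not overlap, but the sum of 263 and 290 reads gave a ratio of 1.16 (0.982 to 1.38). Neither of the PHT1;3 unigenes differed beyond counting error. Bju_CS52_R_4818 had 67 reads in CTRL and 54 in SS, with a ratio of 0.851 (0.584 to 1.24), and Bju_CS52_R_8486 had 53 and 44, with a ratio of 0.877 (0.574 to 1.33). The median log2 ratio of the 6 PHT1 unigenes was -0.20, which turned to 0.03 when a running trend over the unigene number was removed. Their summed reads, 1012 in CTRL against 1582 in SS (ratio 1.65, 1.52 to 1.79), went the other way from the median, so no direction of the PHT1 type as a whole can be given.

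Because PHT1 genes are used mainly in roots and the labels name the tissue only as seedlings, marker levels of shoot and root were compared. Over 44 shoot marker unigenes (light harvesting, photosystem and Rubisco annotations), summed levels were 46110 RPKM in CTRL and 43886 RPKM in SS, with a median log2 ratio of -0.02. Of the 44, 0 were higher and 2 lower past 2-fold, against 1.91% and 4.21% of all unigenes. Over the 8 of 13 root marker unigenes that reached 1 RPKM, the sums were 48.5 and 50.1 RPKM, with a median log2 ratio of 0.03. Most of that sum came from RHD3, a GTP-binding protein that is not limited to roots. The words casparian and expansin A7 matched 0 unigenes. The 4 high affinity nitrate transporter unigenes (2.6 and 2.7 types; the 2.7 type is best known from seeds in Arabidopsis) stayed under 1 RPKM and had fewer reads in SS throughout, with 24, 51, 56 and 14 reads in CTRL against 1, 14, 26 and 8 in SS. The root was thus poorly marked, and its part in the PHT1 values was not tested. In such whole-tissue libraries, fewer cells of a type and less RNA per cell cannot be told apart.

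The traffic facilitator PHF1, which in Arabidopsis helps PHT1 proteins leave the endoplasmic reticulum, had 1140 reads in CTRL and 966 in SS (Bju_CS52_R_23750). Its level was 8.19 RPKM in CTRL against 7.33 RPKM in SS, with a ratio of 0.895 (0.821 to 0.976). The interval lies below 1, but the difference is small.

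The highest organelle carriers were well above the uptake carriers in level, and none of the organelle carriers reached 1.5-fold. The plastid carrier PHT2;1 was covered by 3 unigenes with the same match, and all had lower levels in SS. The highest, Bju_CS52_R_28506, had 17.3 RPKM in CTRL and 15.3 RPKM in SS, from 3791 and 3171 reads. The one with the lowest ratio, Bju_CS52_R_13516, had 4.80 and 3.71 RPKM, a log2 ratio of -0.36. Over the 3 unigenes there were 5428 reads in CTRL against 4397 in SS, with a ratio of 0.856 (0.822 to 0.891). Their median log2 ratio of -0.33 was below 0 under every scaling with own lengths, and 0.07 with the SS values as deposited.

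Mitochondrial carriers of the PHT3 type import phosphate for ATP synthesis. PHT3;2 (Bju_CS52_R_24251) was the highest of all 89 unigenes in CTRL, with 56.4 RPKM from 8159 reads, and had 53.8 RPKM from 7377 reads in SS. Its ratio was 0.955 (0.925 to 0.986). The log2 ratio of -0.07 shrank to -0.00054 with size factors from the median ratio of reads, so no direction can be given. With the SS values as deposited, which lack a length correction, it was 0.78. The PHT3;1 unigenes had 25.5 and 20.5 RPKM (Bju_CS52_R_11097, ratio 0.805, 0.743 to 0.871) and 10.2 and 10.0 RPKM (Bju_CS52_R_6219, ratio 0.989, 0.859 to 1.14) in CTRL and SS. The low PHT3;3 unigene had 21 reads in CTRL and 18 in SS. None of these reached 1.5-fold.

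PHT4 carriers were represented by 6 unigenes, from 1.24 to 43.2 RPKM in CTRL. PHT4;1, which in Arabidopsis sits in the thylakoid membrane, was the highest, with 7500 reads in CTRL and 5487 in SS (Bju_CS52_R_26510). Its level was 43.2 RPKM in CTRL against 33.4 RPKM in SS, with a ratio of 0.773 (0.746 to 0.800). PHT4;3 (Bju_CS52_R_26816) had 8.65 and 9.36 RPKM, a ratio of 1.08 (1.01 to 1.16). The 4 unigenes of PHT4;6, a Golgi carrier in Arabidopsis, shared 1 match and had from 30 to 121 reads each. Their log2 ratios ran from -0.52 (Bju_CS52_R_5006) to 0.18 (Bju_CS52_R_2227), and all their counting intervals include a ratio of 1.

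**Figure D3:**
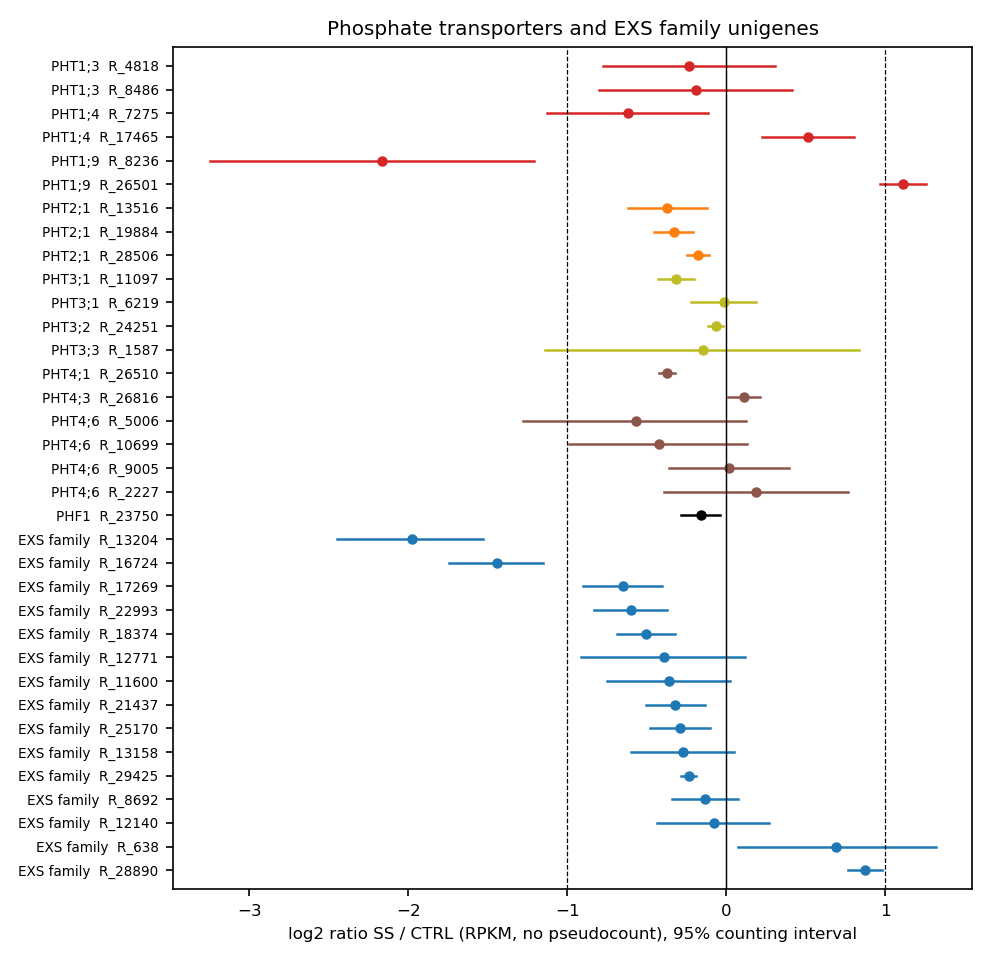
Log2 ratio of SS to CTRL without a pseudocount (x axis) for each of the 35 transporter, PHF1 and EXS family unigenes (y axis), with 95% counting intervals as lines. The solid line marks equal levels and the dashed lines 2-fold. Of the PHT1;9 pair, R_26501 lies on the right and R_8236 on the left, and 13 of the 15 EXS family unigenes lie left of 0.

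The EXS family, to which the xylem-loading PHO1 of Arabidopsis belongs, lay mostly below 0. Of 15 unigenes, all above the minimum level, 13 had a log2 ratio below 0 and 2 above, with a median of -0.31. Over all unigenes, 57.4% were below 0, and over the rapa series 62.2%. With the running trend removed 11 of 15 were below 0, with the SS values as deposited 10, and under the other settings 13. The 15 unigenes share matches, and summed by B. rapa match 9 of 10 were below 0. Past 2-fold, 2 of the 15 were lower and 0 higher, against 4.21% and 1.91% of all unigenes.

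Bju_CS52_R_13204 and the PHT1;9 unigene Bju_CS52_R_8236 had the lowest ratios of the 89 unigenes, and their order depended on the pseudocount, with log2 ratios of -1.85 and -1.80 at 0.1 RPKM and of -1.96 and -2.12 at 0.01 RPKM. Bju_CS52_R_13204 had 212 reads in CTRL against 51 in SS on 693 bp, or 3.23 and 0.820 RPKM, so the CTRL level was 3.94-fold the SS level (2.89 to 5.45) and the log2 ratio -1.85. The other EXS family unigene past 2-fold, Bju_CS52_R_16724, had 376 reads in CTRL against 131 in SS, or 4.42 and 1.63 RPKM, a log2 ratio of -1.39. They matched Bra019688 and Bra019690. Without these unigenes, chosen after their values were seen, the median of the other 13 was -0.28, and 11 of 13 were below 0.

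The most abundant EXS family unigene, Bju_CS52_R_29425, held most of the family's reads. It had 7910 in CTRL against 6366 in SS on 2758 bp, or 30.3 and 25.7 RPKM, a ratio of 0.850 (0.822 to 0.879). The unigene with the highest ratio shared its match, Bra026565. Bju_CS52_R_28890, of 2464 bp, had 1153 reads in CTRL against 2001 in SS, or 4.94 and 9.05 RPKM, a ratio of 1.83 (1.70 to 1.97). The pair thus lay on opposite sides of 1 with counting intervals far apart, and their sum, 9063 reads in CTRL and 8367 in SS, had a ratio of 0.975 (0.947 to 1.005). The other unigene above 0 was the short Bju_CS52_R_638, with 38 reads in CTRL against 58 in SS, with a log2 ratio of 0.65.

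The SPX domain gene unigenes, which stand for the sensor proteins, differed little. SPX domain gene 2, a nuclear inhibitor of PHR1 in Arabidopsis, had 1853 reads in CTRL and 2226 in SS (Bju_CS52_R_19694). Its level was 17.7 RPKM in CTRL against 22.5 RPKM in SS, with a ratio of 1.27 (1.19 to 1.35). SPX domain gene 4 had 2 unigenes with the same match. Bju_CS52_R_18504 had 17.3 RPKM in CTRL against 19.5 RPKM in SS, with a ratio of 1.12 (1.05 to 1.201), and Bju_CS52_R_20811 had 5.22 and 5.01 RPKM, a ratio of 0.959 (0.852 to 1.08). These levels were among the higher ones of the regulators, and none reached 1.5-fold. The remaining SPX domain-containing unigenes, Bju_CS52_R_5834 and Bju_CS52_R_4895, had 55 and 52 reads and 36 and 36 reads in CTRL and SS.

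The SPX-MFS unigenes, whose Arabidopsis relatives store phosphate in the vacuole, spanned both directions. The most abundant, Bju_CS52_R_29267, had 16.5 RPKM in CTRL and 17.2 RPKM in SS, from 4138 and 4082 reads, a ratio of 1.04 (0.998 to 1.09). Bju_CS52_R_22215 had 391 reads in CTRL against 479 in SS, with a ratio of 1.29 (1.13 to 1.48). The last pair shared a match and had lower levels in SS, with 213 and 161 reads for Bju_CS52_R_18449 and 52 and 24 reads for Bju_CS52_R_6688. Bju_CS52_R_6688 had a log2 ratio of -0.93, which passed 2-fold at -1.02 with a pseudocount of 0.01 RPKM. Its CTRL to SS fold without a pseudocount was 2.05 (1.24 to 3.48), so its small counts leave the size open. Over all 9 SPX unigenes the median log2 ratio was 0.06, with 5 above 0 and 4 below, and 5 to 7 above 0 under the other settings.

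PHR1, the activator of the starvation response, was split over 8 unigenes with 2 B. rapa matches. Their levels ran from 1.21 to 8.40 RPKM in CTRL and from 0.877 to 8.72 RPKM in SS. The highest, Bju_CS52_R_25004, had 1288 reads in CTRL against 1266 in SS, with a ratio of 1.04 (0.960 to 1.12). The 6 unigenes of Bra011042 had log2 ratios from -0.10 (Bju_CS52_R_17949) through 0.01 (Bju_CS52_R_25609), 0.05 (Bju_CS52_R_25004), 0.18 (Bju_CS52_R_24572) and 0.19 (Bju_CS52_R_25069) to 0.23 (Bju_CS52_R_26039). Their summed reads were 3528 in CTRL against 3592 in SS, with a ratio of 1.08 (1.03 to 1.12). The unigenes of Bra010355 had log2 ratios of -0.04 (Bju_CS52_R_18722) and, on 35 and 24 reads, -0.42 (Bju_CS52_R_277). None of the 8 reached 1.5-fold. Of the 8, 5 were above 0, against 4 to 6 under the other settings with own lengths and 7 with the SS values as deposited.

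The genes named for their induction by phosphate starvation gave no common direction. Phosphate starvation-induced gene 2, a pyrophosphatase in Arabidopsis, had 2 unigenes with the same match that differed beyond counting error. Bju_CS52_R_17962 had 605 reads in CTRL against 396 in SS, with a ratio of 0.691 (0.608 to 0.786), and Bju_CS52_R_19746 had 274 and 322, a ratio of 1.24 (1.05 to 1.46). Phosphate starvation-induced gene 3, a putative glycerol-3-phosphate permease in Arabidopsis, was more abundant. Bju_CS52_R_26988 had 16.7 RPKM in CTRL against 20.3 RPKM in SS, with a ratio of 1.21 (1.16 to 1.28), and the low Bju_CS52_R_12232 had 104 and 99 reads. All 4 stayed within 1.5-fold.

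Purple acid phosphatases were the largest group, with 33 unigenes of 21 B. rapa matches, of which 30 reached 1 RPKM. Their levels ran from 0.838 to 43.2 RPKM in CTRL and from 0.648 to 54.9 RPKM in SS. Of the 30, 22 had a log2 ratio above 0 and 8 below, with a median of 0.21, whereas 42.6% of all unigenes and 37.8% of the rapa series were above 0. The number above 0 was 21 to 23 under the other settings with own lengths and 19 with the SS values as deposited. Summed by match, 16 of 21 were above 0. Past 2-fold, 0 of the 30 were higher and 1 lower, against 1.91% and 4.21% of all unigenes. Most of the differences within the group were thus small.

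PAP26, the main intracellular and secreted acid phosphatase of phosphate-starved Arabidopsis, was the highest of all 89 unigenes in SS. Bju_CS52_R_25922 had 7122 reads in CTRL against 8580 in SS, or 43.2 and 54.9 RPKM, a ratio of 1.27 (1.23 to 1.31). The highest ratio of the group belonged to Bju_CS52_R_28164, annotated only as a purple acid phosphatase superfamily protein and tied in the study's supplement to an Arabidopsis gene for an acid phosphatase of plastids and mitochondria. It had 1756 reads in CTRL against 3063 in SS, or 8.43 and 15.5 RPKM, a ratio of 1.84 (1.74 to 1.95). A shorter unigene with the same match, Bra019699, Bju_CS52_R_24791, had 205 and 239 reads, a ratio of 1.23 (1.02 to 1.49).

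Several enzymes that are known in Arabidopsis for induction by phosphate starvation were named after their values were seen, so they do not stand for the whole group. The PAP17 unigenes had 17.05 and 25.77 RPKM (Bju_CS52_R_20898, ratio 1.51, 1.43 to 1.603) and 5.86 and 7.78 RPKM (Bju_CS52_R_21958, ratio 1.33, 1.202 to 1.47) in CTRL and SS. PAP10 and PAP12 are secreted phosphatases of the root surface and surroundings. The best covered PAP10 unigenes had ratios of 1.37 (Bju_CS52_R_11951) and 1.26 (Bju_CS52_R_27927), and PAP12 one of 1.29 (Bju_CS52_R_26322). Both PAP29 unigenes lay in the same direction, with ratios of 1.39 (Bju_CS52_R_21595) and 1.33 (Bju_CS52_R_14960), and PAP24 had 1.46 (Bju_CS52_R_27164). In contrast, PAP15 and PAP23, which hydrolyse phytate in Arabidopsis, had no common direction. PAP15 log2 ratios ran from -0.82 to 0.19 on at most 143 reads per library, and those of PAP23 were -0.07 and 0.08. Each PAP13 unigene lay below 0, from -0.41 (Bju_CS52_R_12753) to -0.16 (Bju_CS52_R_10689), as did PAP9 at -0.15 (Bju_CS52_R_23439). The PAP10 unigene under the minimum level, Bju_CS52_R_692, was at -0.36 from 28 and 20 reads. The counting intervals of these PAP13, PAP9 and PAP10 unigenes all include a ratio of 1. PAP6 (0.09 and 0.16), PAP16 (0.09) and PAP18 (0.04) lay near 0, and PAP28 split (-0.21 and 0.55).

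PAP3 stood apart from the rest of the group. Bju_CS52_R_20663, of 1179 bp, had 4357 reads in CTRL against 1667 in SS, or 39.0 and 15.8 RPKM. Its CTRL level was 2.47-fold the SS level (2.34 to 2.62), a log2 ratio of -1.30. It was the second highest purple acid phosphatase in CTRL and the fourth highest in SS. With the SS values as deposited its log2 ratio was -0.83. Over the whole group, reads totalled 28875 in CTRL against 31098 in SS, with a ratio of 1.14 (1.12 to 1.16). Without PAP3, left out after its value was seen, the ratio was 1.27 (1.25 to 1.29). The ratio was thus above 1 with and without PAP3, and its size depended on this 1 unigene. PAP26 held 7122 of the group's reads in CTRL and 8580 in SS.

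**Figure D4:**
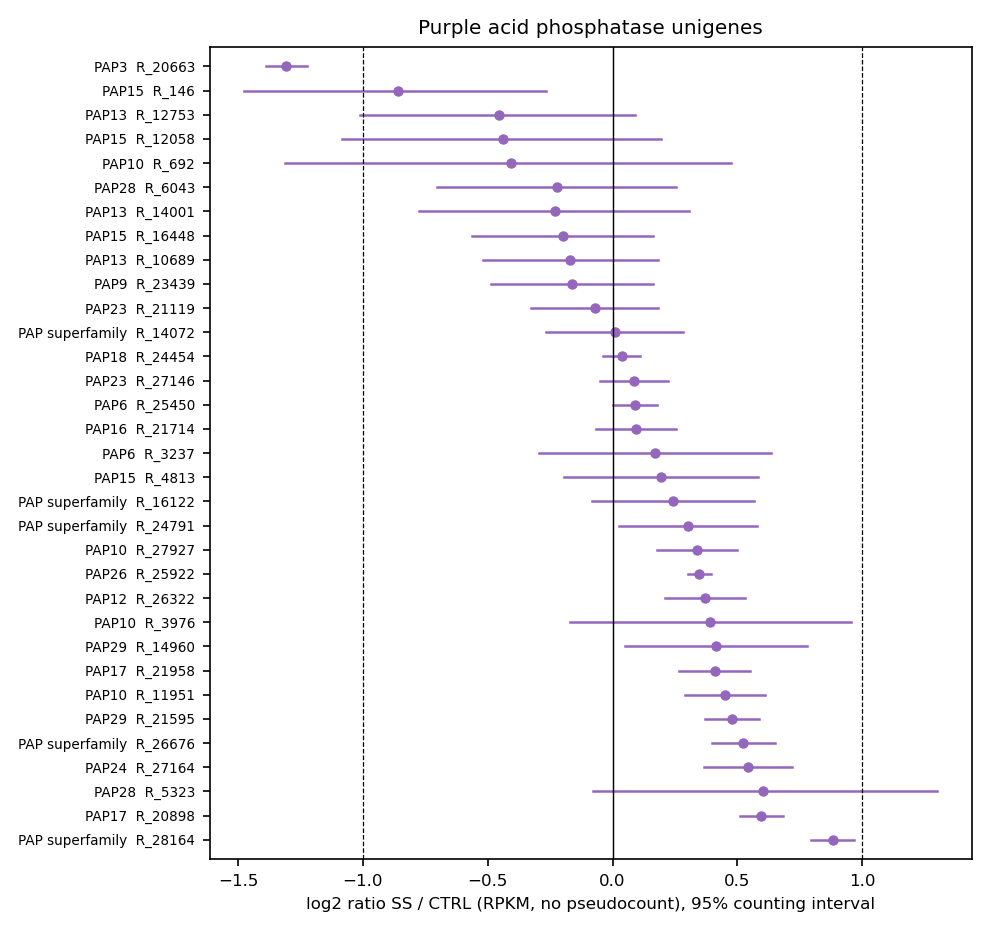
Log2 ratio of SS to CTRL without a pseudocount (x axis) for each of the 33 purple acid phosphatase unigenes (y axis), with 95% counting intervals as lines, a solid line at equal levels and dashed lines at 2-fold. The group spreads from PAP3 (R_20663), at a CTRL to SS fold of 2.47, to R_28164, at an SS to CTRL ratio of 1.84.

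Unigenes that share a B. rapa match allow a comparison of copies or fragments of what may be 1 gene. Of the 55 matches, 24 had 2 or more unigenes, 58 unigenes in all. The highest and lowest log2 ratio within a match differed by 0.28 in the median. Members under the minimum level were kept in this comparison. In 11 of the 24 the signs differed, and in 4 the counting intervals lay apart. Among the 11, the PAP10 match Bra037302 had differing signs only through a unigene under the minimum, Bju_CS52_R_692. The 4 with intervals apart were Bra026565 of the EXS family, Bra000107 of PHT1;4, Bra008066 of phosphate starvation-induced gene 2 and Bra019699 of the purple acid phosphatases. In the first 3 the unigenes lay on opposite sides of 0. Whether unigenes of a match are homeologs, paralogs or fragments was not tested. Length also differed between members. The 18 members under 500 bp above the minimum had a median log2 ratio of -0.09 and the 44 of 1000 bp or more 0.09. For all unigenes of these lengths the medians were -0.13 and -0.05.

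**Figure D5:**
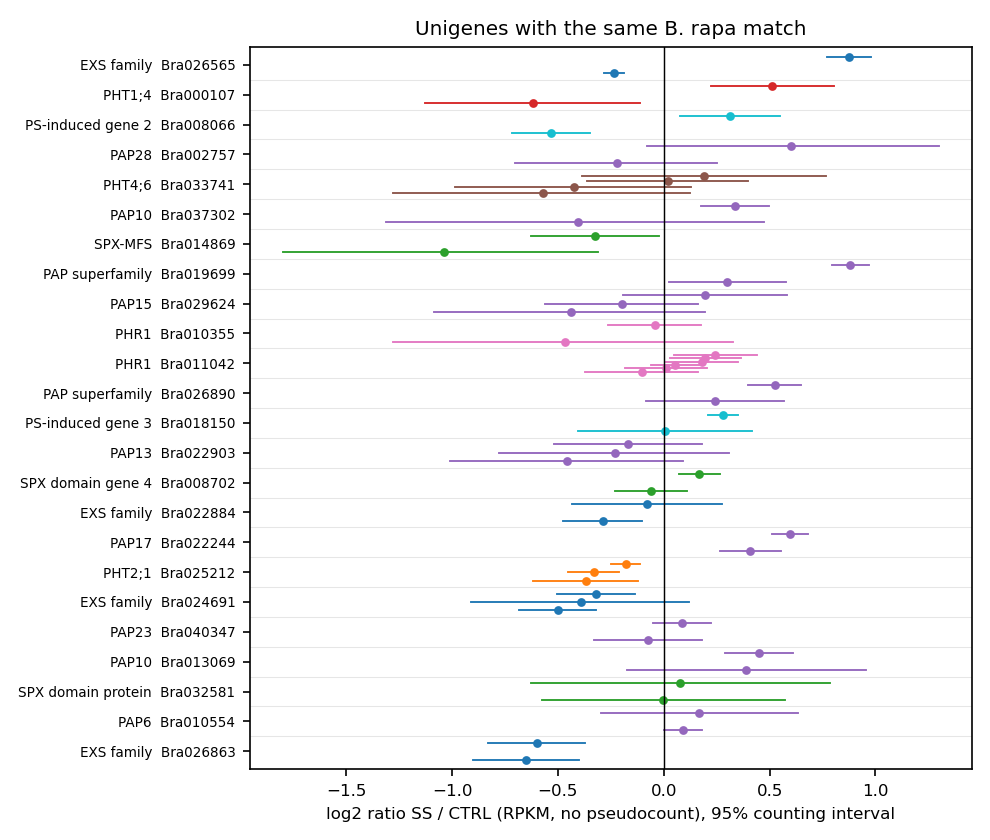
Log2 ratio of SS to CTRL without a pseudocount (x axis) for the 58 unigenes that share a B. rapa match with another member, grouped by match (y axis) and ordered by the difference within a match, with 95% counting intervals. The uppermost 3 matches (EXS family, PHT1;4 and phosphate starvation-induced gene 2) hold unigenes on both sides of 0 whose intervals do not overlap.

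Other genes of phosphate economy were taken by a second list of annotation words, which covers lipid remodelling, phosphate-releasing nucleases and phosphatases, plastid phosphate translocators and PHO2. It matched 99 unigenes, 93 of them above the minimum level. Past 2-fold, 0 were higher and 5 lower, against 1.91% and 4.21% of all unigenes, with a median log2 ratio of -0.02. Of the 93, 46 had a log2 ratio above 0 and 47 below. Its words also matched genes outside the pathway, such as exoribonuclease 2, phosphatidic acid phosphatases and a number of ADP-glucose, UDP-glucose and UDP-sugar pyrophosphorylases. The counts and the median of the list include these.

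The lowest was a ribonuclease T2 family unigene, Bju_CS52_R_13527, which the study's supplement ties to RNS1, a phosphate starvation-responsive nuclease of Arabidopsis. It had 383 reads in CTRL against 44 in SS, or 5.70 and 0.691 RPKM, a log2 ratio of -2.87. A shorter unigene with the same match, Bju_CS52_R_9182, went the opposite way, with 102 and 120 reads and a log2 ratio of 0.30. A type C monogalactosyldiacylglycerol synthase (Bju_CS52_R_388), an enzyme that replaces phospholipids by galactolipids, had 58 and 15 reads, a log2 ratio of -1.70. The other unigenes of its match had smaller differences, with log2 ratios of -0.17 (Bju_CS52_R_14899) and -0.31 (Bju_CS52_R_11433). The plastid glucose-6-phosphate/phosphate translocator 2 (Bju_CS52_R_17516) had 131 and 35 reads, a log2 ratio of -1.61. A short phospholipase D beta 2 unigene (Bju_CS52_R_4177) had 39 and 12 reads, a log2 ratio of -1.39. The best covered unigene of its match, Bju_CS52_R_26138, had 763 and 691 reads and a log2 ratio of -0.06. The others had -0.69 (Bju_CS52_R_6467) and, under the minimum level, 0.35 (Bju_CS52_R_1789). A phosphate-responsive 1 family unigene (Bju_CS52_R_19020) had 797 and 283 reads, a log2 ratio of -1.39. Grouped after their values were seen, 9 of the 10 galactolipid and sulfolipid enzyme unigenes had a log2 ratio below 0, with a median of -0.29. The shares below 0 were 57.4% of all unigenes and 62.2% of the rapa series. Several of the 10 shared a B. rapa match, so they are not 10 separate genes, and they were not summed by match. The unigene above 0, sulfoquinovosyldiacylglycerol 1 (Bju_CS52_R_26695), had 8419 and 9415 reads and a log2 ratio of 0.24. Summed levels of the 10 were 187 RPKM in CTRL and 174 RPKM in SS. Of the phospholipase D unigenes 11 of 18 were below 0, with a median of -0.06, and of the non-specific phospholipase C unigenes 1 of 3. The phospholipase D P1 and P2 unigenes above the minimum level had log2 ratios from -0.02 (Bju_CS52_R_15937) to 0.54 (Bju_CS52_R_10428). Both unigenes annotated as phosphate 2 (PHO2), an enzyme that marks phosphate transporters for breakdown in Arabidopsis, were above 0, with log2 ratios of 0.30 and 0.38. The highest of the list was a HAD superfamily acid phosphatase unigene (Bju_CS52_R_18074), with 1946 and 3244 reads and a log2 ratio of 0.81. The other unigene of its match, Bju_CS52_R_17641, had -0.12. Phosphoenolpyruvate carboxylase kinase 1 (Bju_CS52_R_22446) had 0.62 and non-specific phospholipase C1 (Bju_CS52_R_27153) 0.57.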

How the data were processed

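A single series table with 1 library per condition was analysed. The authors mapped high-quality reads with BOWTIE2 to Trinity unigenes. The deposited CTRL values are RPKM that include the length of the unigene. The SS values, deposited under the same unit name, are a signal proportional to reads, since 100% of the 47505 came out whole (tolerance 0.01 read) when divided by the value of 1 read on 849 bp. The authors' text also names a DESeq normalization. Both columns gave whole reads when scaled to the high-quality reads of each library alone, with no size factor.

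Lengths were the single whole number that gave whole CTRL reads, non-decreasing with the unigene number within each series. A single length was left for 47390 of the 47392 positive CTRL values and for all 89 members, and SS was rescaled to it. The recovered reads sum to 77863911 for CTRL and 73982305 for SS, and 1 read on a unigene of 1000 bp adds 0.0105 RPKM (CTRL) or 0.0111 RPKM (SS). With 1 library per condition, the recovered reads allow no count test.

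The log2 ratio uses a pseudocount of 0.1 RPKM. Ratios have exact 95% Clopper-Pearson intervals (SciPy 1.17.1), and PCR duplicates are not independent molecules. Members and lists were chosen with earlier results of these data known. Named were all members past 2-fold, all PHT1, SPX and PHR1 members, the extremes of the other roles, and further ones where stated. No sequences of the unigenes were used here. Alternative pseudocounts, minimum levels, folds, scalings, a running trend over 500 unigenes, and sums by B. rapa match were tried.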

Additional observations from a re-analysis of the deposited data

How the results depend on the processing

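The counts of members past 2-fold (1 higher, 4 lower in SS), their median log2 ratio and the counts of the second list (0 higher, 5 lower) moved furthest when SS was left as deposited. Then 22 members were higher and 12 lower, and 24 of the 85 changed sign. Their median was 0.23 over the members at 1 or more in either deposited column and 0.11 over the 85, and the second list had 25 higher and 16 lower, because 1 common length raises long unigenes and lowers short ones. A pseudocount of 1 RPKM gave 0 higher members and 2 lower unigenes of the second list. With a mean of at least 1 RPKM, 3 of the second list were lower. With at least 5 RPKM in either library, 1 member and 2 of the second list were lower. At 1.5-fold, 5 members were higher and 7 lower, and at 3-fold 0 and 2. Centring, equal totals, size factors, removal of the running trend, a pseudocount of 0.01 RPKM and no minimum level each left these counts within 1.5 times of the reported ones. The sign of the members' median, -0.0018 as reported, depended on the setting. It was 0.06 with size factors, 0.07 with the running trend removed or at least 5 RPKM in either library, and -0.04 with no minimum level. Reads summed by B. rapa match, run for the members only, gave 1 higher and 4 lower. The set of members without carriers of other phosphorylated compounds was the same 89. No member past 2-fold changed direction, and between 0 and 8 of the 85 members changed sign under the settings with own lengths. No paired analysis was possible because there is 1 library per condition, and none could be left out. Values under about 50 reads have wide counting intervals.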
